A study of Canis lupus familiaris with 37 samples.

Results

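The comparison described here set 12 primary canine B-cell lymphomas against 4 lymph nodes used as controls, 16 of the 37 samples of the series. Samples were assigned to their groups by title alone. The lymphomas were multicentric tumours, which arise in many lymph nodes at a time, and came from separate dogs with naturally occurring disease. The controls were non-neoplastic lymph nodes, and the sources used here do not give the age, breed or treatment of any dog, nor whether the control nodes came from separate dogs. P-values therefore refer to the spread between samples, which was estimated within the groups of all 37 samples, cell lines included. RNA with poly-A tails was sequenced from whole tissue, and the deposited values are the numbers of reads counted on each Ensembl gene of the dog genome CanFam3.1.

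Lymph nodes hold B cells, T cells, antigen-presenting cells, vessels and a network of fibroblast-like cells that lay down extracellular matrix. In a B-cell lymphoma a population of B cells grows at the expense of this organisation. B cells carry the B-cell receptor, through which antigen signals to the nucleus, and major histocompatibility complex (MHC) class II proteins, with which they present peptides to T cells. Cell division rests on the replication machinery, which copies the DNA, and on kinetochores, the protein assemblies that attach chromosomes to the spindle.

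Several labels went against the titles. A second label field with flow cytometry calls listed 7 of the 12 lymphomas as B-cell lymphoma, 2 as not classifiable, 2 as reference tissue (replicates 6 and 10) and 1 as T-cell derived, and it listed all 4 controls as lymphomas. The source field of control 4 describes a line of T cells. Its expression profile nevertheless lay with the other controls. Over 15162 genes, which are not independent of each other, Spearman's rho of control 4 with controls 1 to 3 was 0.898 to 0.928, against 0.797 to 0.851 with the lymphomas and 0.63 to 0.68 with the 6 samples of T-cell lines in the series. Controls 1 to 3 correlated among themselves at 0.94 to 0.966.

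Depth was moderate. Between 2213883 and 4863730 reads per lymphoma and between 1962722 and 3034152 reads per control were counted on genes. Reads outside genes made up 69.96 to 76.15% of a lymphoma file and 76.17 to 82.86% of a control file. Genes with at least 1 count numbered 15180 to 16972 in the lymphomas and 17501 to 19668 in the controls. Both measures thus separated the groups, and their part in the differences below was not tested. In these libraries 3 counts, the smallest level taken as visible, stood for 0.617 to 1.53 CPM, the usual count scaled to library size. Levels below are given as CPM adjusted by the trimmed mean of M-values (TMM) and are not corrected for gene length, so they were compared between samples and not between genes. No samples within a group were duplicates: the counts of the closest of 72 pairs within a group differed by 10.8 times the variance that sampling noise gives (chi-square over its degrees of freedom). Lymphomas were not compared with controls in this check.

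**Figure D1:**
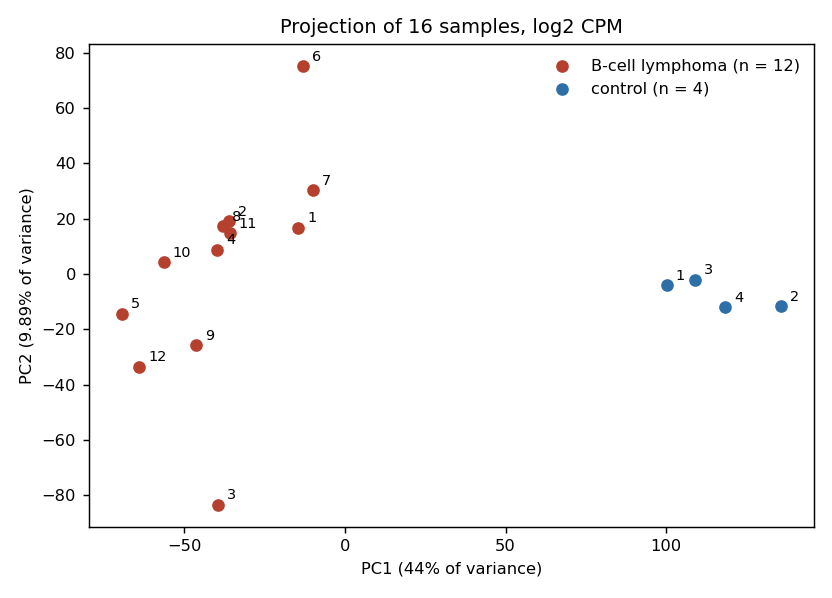
Principal component projection of the 16 samples on log2 CPM of 15162 genes, with PC1 and PC2 as axes and the share of variance in brackets. Points are samples numbered by replicate, the 12 lymphomas in red and the 4 controls in blue. All lymphomas lie below 0 and all controls above 100 on PC1.

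The first principal component carried 44.0% of the variance and separated the groups without overlap. The controls lay at 100.2 to 135.9, with control 4 at 118.3, and the lymphomas at -69.5 to -9.9. The lymphomas that the flow cytometry field lists as reference tissue, replicates 6 and 10, lay among the other lymphomas at -13.2 and -56.4. The second component (9.89%) drew lymphoma 3 (-83.5) and lymphoma 6 (75.3) apart from the remaining tumours.

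Genes that differed between the lymphomas and the controls were called with edgeR's quasi-likelihood test at a Benjamini-Hochberg adjusted p of at most 1e-05. Of 15162 genes tested, 839 (5.53%) were called, of which 361 (2.38% of those tested) were higher and 478 (3.15%) were lower in the lymphomas. At an adjusted p of 0.05 the test called 7116 genes. The model estimated the spread from all 37 samples. Fitted to these 16 samples alone, it called 268 genes, 22 higher and 246 lower. The split between directions depended on the scaling. With relative log expression (RLE) size factors in place of TMM, 174 genes were higher and 644 lower, so that the share of lower genes went from 57.0% to 78.7%, and the median log2 fold-change over all genes shifted from 0.01 to -0.20.

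Higher and lower genes differed in the size of their changes. Among the 361 higher genes the log2 fold-change ran from 0.79 to 2.89 with a median of 1.40, and 81 of them exceeded 2. Among the 478 lower genes it ran from -7.55 to -0.84 with a median of -3.68, and 444 lay below -2. The higher genes were already abundant in the controls, with a median level of 38.2 CPM there and 104 CPM in the lymphomas. The lower genes had a similar median level in the controls, 33.9 CPM, and 2.72 CPM in the lymphomas. Since these are whole tissues, fewer cells of a type and less RNA per cell cannot be told apart in any of the differences.

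**Figure D2:**
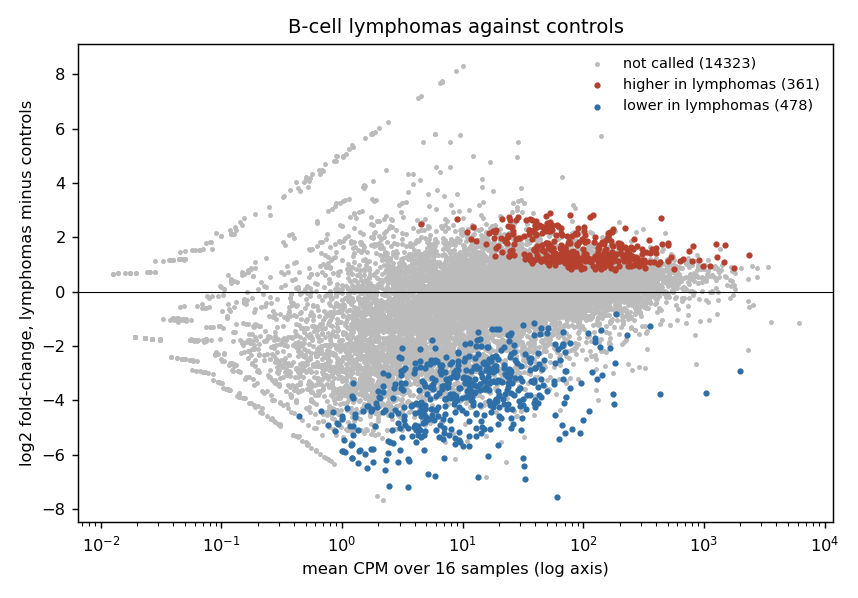
Log2 fold-change of the lymphomas minus the controls (vertical axis) against mean CPM over the 16 samples (logarithmic horizontal axis) for 15162 genes. Points in red are the 361 genes called higher, in blue the 478 called lower and in grey the others. The red points stay between 0.79 and 2.89, and the blue points reach -7.55.

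Most called genes separated the groups completely. All 12 lymphomas lay above all 4 controls in 339 of the 361 higher genes and below them in 456 of the 478 lower genes. Over all genes tested, called or not, 1162 (7.66%) had every lymphoma above every control and 1698 (11.2%) every lymphoma below. The remaining 44 called genes had overlapping groups.

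Gene symbols were not available for the identifiers in the files, except for a pair of genes that the study's text pairs with their Ensembl identifiers. In the fit to the 16 samples alone 55 of the 81 called genes chosen by the rules missed the threshold, and 0 of these had an adjusted p above 0.05. Among the genes described below these were SHCBP1, FLT3, ENSCAFG00000012136, ENSCAFG00000008877, ENSCAFG00000012876, ENSCAFG00000017447 and ENSCAFG00000029384. The genes below are named by identifier, with the function that the study's tables give them where they give one. Most were taken by rank: the largest changes among called genes without overlap, called members of a function list among those of lowest p, or the largest spread. A list member described below is thus not always the one of lowest p in its list. Because symbols were lacking, B-cell, T-cell, endothelial and fibroblast markers could not be looked up by name, and the function lists stand in for them.

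The largest rise was that of ENSCAFG00000012136, which the study's tables place at the kinetochore and among protein kinases. Its level was 35.0 CPM in the lowest lymphoma, 54.2 at the median and 177 in the highest, against 12.7, 5.48, 11.3 and 6.74 CPM in controls 1 to 4. The groups did not overlap, and the log2 fold-change was 2.89 ± 0.37 (SE, edgeR, adjusted p = 3.62e-07). ENSCAFG00000008378, with no function listed, followed at 41.9, 87.1 and 146 CPM for the lowest, median and highest lymphoma. Its controls stood at 16.1, 10.5, 19.5 and 8.62 CPM, all below every lymphoma, with a log2 fold-change of 2.84 ± 0.33 (adjusted p = 8.07e-08).

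The deepest fall was that of ENSCAFG00000009884, listed under wound healing. The lymphomas ranged from 0 to 4.22 CPM with a median of 0.700, and 3 of the 12 held no read of it. The controls stood at 99.5, 714, 106 and 36.3 CPM. Control 2 was far above the other controls, and even control 4 lay above every lymphoma. The log2 fold-change was -7.55 ± 0.68 (edgeR, adjusted p = 7.56e-08).

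ENSCAFG00000008791, which has no listed function, was nearly absent from the tumours. A single read of it was found among the 37898287 reads of the 12 lymphomas, in lymphoma 10, against 94 reads among the 9489247 of the controls. The controls stood at 9.32, 17.5, 7.63 and 4.50 CPM. Per read, the gene was 375 times as frequent in the controls (95% interval 65.8 to 14984, for counting error only), with an edgeR adjusted p of 7.64e-09.

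The study's text names 2 of the genes, SHCBP1 and FLT3. SHCBP1 (ENSCAFG00000003704) encodes a protein that binds the adaptor SHC1 and is known from dividing cells. Its level in the lymphomas was 39.1 CPM at the lowest, 84.0 at the median and 129 at the highest, and 28.4, 13.5, 23.8 and 11.2 CPM in controls 1 to 4. No lymphoma reached down to the highest control. The log2 fold-change was 2.08 ± 0.30 (edgeR, adjusted p = 1.78e-06). Without control 4 it was 1.89 and the adjusted p of 3.87e-05 missed the threshold, as it also did without control 2 (1.95) or control 3 (2.21).

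FLT3 (ENSCAFG00000006716) encodes a receptor tyrosine kinase of haematopoietic progenitors and dendritic cells. The controls stood close together at 39.0, 29.4, 35.1 and 27.3 CPM. The lymphomas ranged from 0.278 to 6.49 CPM with a median of 3.17, all below every control. The log2 fold-change was -3.20 ± 0.36 (edgeR, adjusted p = 7.83e-08) and -3.27 without control 4 (adjusted p = 4.25e-07). FLT3 was the lowest in lymphoma 10, while SHCBP1 was the lowest in lymphoma 4 and the highest in lymphoma 12.

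**Figure D3:**
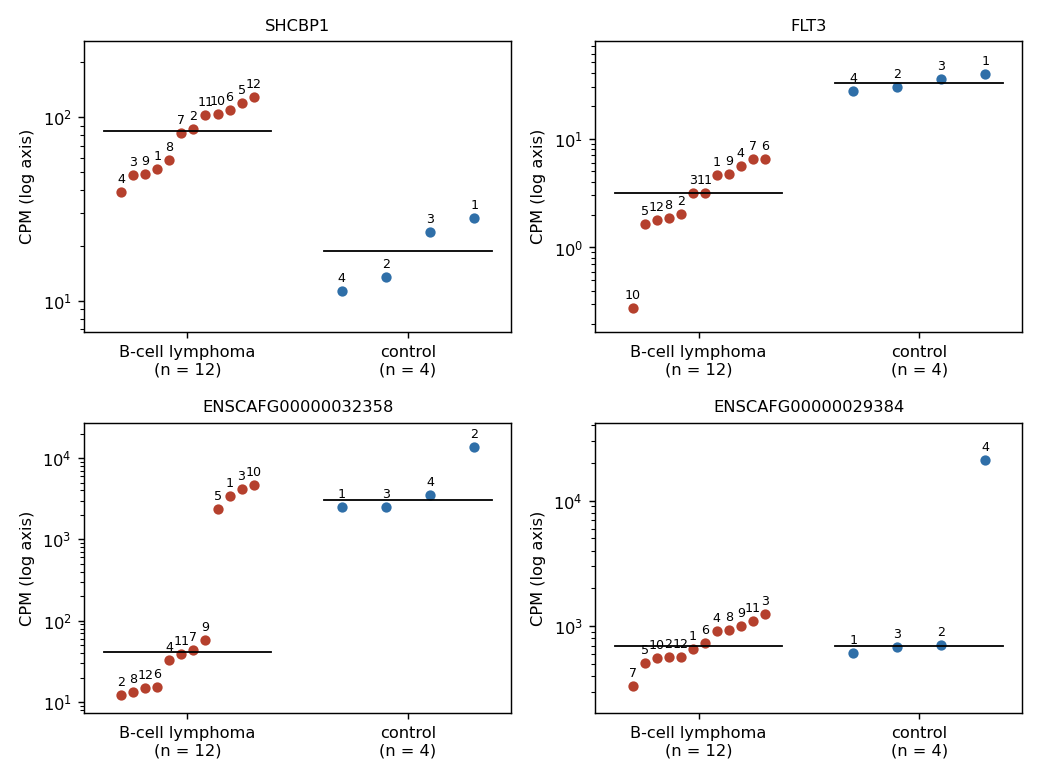
CPM (logarithmic axis) of SHCBP1, FLT3, ENSCAFG00000032358 and ENSCAFG00000029384 in the 12 lymphomas (red) and 4 controls (blue), each point a sample numbered by replicate and each line a group median. SHCBP1 and FLT3 separate the groups, ENSCAFG00000032358 splits the lymphomas into 8 samples of at most 57.5 CPM and 4 of at least 2342 CPM, and ENSCAFG00000029384 is high in control 4 alone.

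Functions were examined with 39 lists of genes taken from the study's functional tables. The study drew these lists from genes that differed in some sample group of this same series, and some are shortened, so their counts are no independent evidence of a direction. The lists overlap, with 580 distinct genes of which 169 stood in more than 1 list. All 580 were tested, 43 were called higher and 55 lower. The median log2 fold-change was above 0 in 13 lists and below 0 in 26, and neither leaving out control 4 nor RLE scaling turned the sign of any of these medians. Leaving out control 1 or 2 turned 1 each, viral genome replication (0.68) and phagosome (0.01).

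Over all genes tested 2.38% were called higher and 3.15% lower, against which each count below is to be read. Lists of DNA replication held calls in the higher direction only. Of 16 genes of replication initiation, 8 were called higher and 0 lower, with a median log2 fold-change of 1.62 against 0.01 over all genes tested. All 12 lymphomas exceeded all controls in 11 of the 16, against 7.66% of all genes tested. Summed over the list, the level ran from 1429 CPM in lymphoma 1 to 2551 CPM in lymphoma 2, against 768, 605, 768 and 587 CPM in the controls. The sums did not overlap. The broader KEGG replication list gave 8 of 22 called higher and 0 lower (median 1.15). Its member of lowest p, ENSCAFG00000030380, stood at 283, 361 and 460 CPM in the lowest, median and highest lymphoma and at 130, 137, 169 and 117 CPM in the controls. Its log2 fold-change was 1.38 ± 0.14 (edgeR, adjusted p = 2.54e-08). Without control 4, 5 genes of each list were still called, and the medians were 1.54 and 1.21.

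Calls among genes of chromosome segregation were likewise all in the higher direction. At the kinetochore 7 of 18 genes were called higher (median 1.27), among those of sister chromatid segregation 10 of 31 (median 1.55), and at the mitotic spindle 3 of 20 (median 1.26), with 0 lower in each. ENSCAFG00000008877, a kinetochore gene also listed for the mitotic checkpoint, spread widely over the tumours, from 34.7 CPM in the lowest lymphoma through a median of 142 to 261 CPM. Its controls stood at 26.3, 15.5, 28.7 and 15.4 CPM, just below the lowest lymphoma (log2 fold-change 2.82 ± 0.38, adjusted p = 6.93e-07). Without control 4 or control 2 it missed the threshold (adjusted p = 1.50e-05 and 1.66e-05). The sum of the kinetochore list was the lowest in lymphoma 3 (915 CPM) and the highest in lymphoma 5 (1700 CPM), above the controls (450 to 621 CPM). Sums of sister chromatid segregation did not overlap either (lymphomas 1590 to 2880 CPM, controls 1046 to 1253 CPM). Those of the mitotic spindle did (1998 to 2848 CPM and 1633 to 2078 CPM). The counts of called genes were more fragile than the medians. Without control 4 the called genes fell to 2 of 18, 2 of 31 and 1 of 20 at medians of 1.21, 1.51 and 1.21, and RLE scaling left 5, 4 and 2.

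Lists of cell cycle transitions were mixed. In the list for the G1/S transition 4 of 39 genes were called higher and 0 lower, with a median of 0.39. The G2/M list had 6 of 20 higher (median 0.49) and the KEGG cell cycle list 3 of 27 (median 0.90), again with 0 lower. In the list of DNA integrity checkpoints 5 of 27 genes were called higher (median 0.75), while ENSCAFG00000002601 was called lower. That gene stood at 111, 187, 153 and 184 CPM in the controls and between 15.5 and 46.4 CPM in the lymphomas, with a median of 21.6 (log2 fold-change -2.63 ± 0.28, adjusted p = 2.54e-08). At an adjusted p of 0.05 (edgeR) the G1/S list had 19 genes higher and 10 lower, and the G2/M list 10 and 8. Without control 4, 2 genes of G1/S, 2 of G2/M, 3 of the KEGG list and 2 of DNA integrity were called higher. Summed levels of the G1/S list overlapped between lymphomas (3331 to 3991 CPM) and controls (2875 to 3947 CPM). Those of the G2/M list overlapped as well (851 to 1335 CPM and 858 to 1139 CPM).

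**Figure D4:**
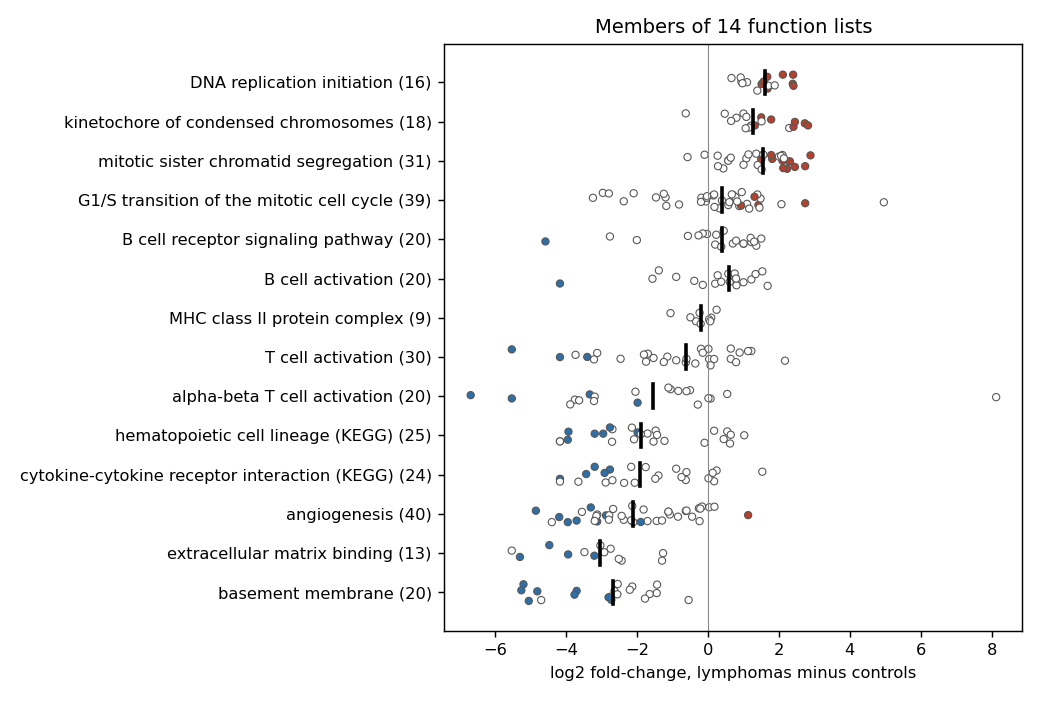
Log2 fold-change of the lymphomas minus the controls for the members of 14 function lists, with the number of members in brackets. Each circle is a gene, red where called higher, blue where called lower and open where not called, and each bar is the list median. The medians run from 1.62 for replication initiation to -3.04 for extracellular matrix binding.

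The share of genes called in the B-cell lists was near that over all genes (2.38% higher, 3.15% lower). Of 20 genes of B-cell receptor signalling 0 were called higher and 1 lower (median 0.40), and the same counts held for B cell activation (median 0.59) and for regulation of B cell proliferation (median 0.56). Summed over the list, B-cell receptor signalling ran from 4509 CPM in lymphoma 3 to 8934 CPM in lymphoma 6, above all controls (3248 to 3671 CPM). Sums of B cell activation did not overlap either (lymphomas 3397 to 5325 CPM, controls 2619 to 3299 CPM). Those of regulation of B cell proliferation did (3573 to 6730 CPM and 3538 to 3965 CPM). The member of B-cell receptor signalling called lower, ENSCAFG00000012876, stood at 125, 77.3, 49.4 and 33.3 CPM in the controls. The lymphomas ranged from 0.224 to 10.7 CPM with a median of 1.27, all below every control (log2 fold-change -4.59 ± 0.60, adjusted p = 1.76e-06). Without control 1 or control 2 it missed the threshold (adjusted p = 2.64e-05 and 1.40e-05). The member of B cell activation called lower was ENSCAFG00000018752, which is also listed for T cell activation, haematopoietic lineage and cytokine receptors. It stood at 178, 100, 94.3 and 62.9 CPM in the controls and between 1.62 and 14.7 CPM in the lymphomas (log2 fold-change -4.18 ± 0.39, adjusted p = 7.14e-09).

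In the T-cell lists the calls were in the lower direction, where the share over all genes was 3.15%, and with 2.38% of all genes called higher the lack of higher calls says little. In the list of T cell activation 3 of 30 genes were called lower and 0 higher (median -0.62), and in that of alpha-beta T cell activation 4 of 20 and 0 (median -1.55). The sum of the alpha-beta list ran from 1500 to 2547 CPM in the lymphomas and stood at 4174, 3612, 3442 and 2460 CPM in the controls. Control 4 fell within the range of the lymphomas, and controls 1 to 3 lay above it. ENSCAFG00000017447, of the same list, had a median of 34.8 CPM in the lymphomas (20.6 to 72.9) against 203, 120, 137 and 151 CPM, a log2 fold-change of -1.99 ± 0.25 (adjusted p = 3.33e-07). Without control 4, 1 of 30 and 2 of 20 genes were called lower.

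Haematopoietic lineage genes, a KEGG list that contains FLT3 and other surface receptors of blood cells, had 7 of 25 called lower and 0 higher (median -1.90). Genes of cytokines and their receptors had 5 of 24 called lower (median -1.92), and the sum of that list was 960 to 1857 CPM in the lymphomas and 1937 to 3159 CPM in the controls. Myeloid leukocyte activation had 4 of 26 called lower (median -0.93), leukocyte chemotaxis 2 of 20 (median -0.68), although its summed level was 2104 to 3679 CPM in the lymphomas and 2007 to 2510 CPM in the controls, and NF-kappa B signalling 2 of 20 (median -0.90). Without control 4 the lineage list had 6 and the cytokine list 4 genes called lower. Myeloid leukocyte activation then had 2, leukocyte chemotaxis 1 and NF-kappa B signalling 1. The summed level of the lineage list in the lymphomas (3196 to 5768 CPM) overlapped that in the controls (3846 to 4629 CPM). Sums also overlapped for myeloid leukocyte activation (lymphomas 1085 to 2355 CPM, controls 2213 to 2869 CPM). The same held for NF-kappa B signalling (1242 to 1976 CPM and 1889 to 2277 CPM).

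MHC class II levels differed widely between the tumours. Of its 9 genes 0 were called in either direction by edgeR or DESeq2 (1 had an unadjusted p under 0.05 in edgeR), and the median log2 fold-change was -0.21. The summed level was 9488, 9976, 10695 and 7566 CPM in controls 1 to 4. In the lymphomas it ran from 2796 CPM to 12656 CPM with a median of 8208. Lymphomas 3, 5, 12 and 10 held 2796, 3753, 4320 and 4655 CPM, and the next tumour held 7388 CPM. These 4 tumours were the lowest of the 12 for each of the 9 genes. They also held the lowest sums of B-cell receptor signalling, at 4509 to 4854 CPM, although the next tumour followed closely there at 4953 CPM. The same 4 tumours held the lowest sums of B cell activation, T cell activation, lymphocyte apoptosis, antigen presentation and the whole MHC complex. Low sums in these tumours were thus not particular to MHC class II and B-cell receptor signalling. The flow cytometry field lists lymphoma 5 as B-cell lymphoma, 3 as not classifiable, 10 as reference tissue and 12 as T-cell derived. The 4 libraries held 2213883 to 3568388 reads on genes, and that of lymphoma 12 was the smallest of the lymphomas. The part of either in this result was not tested.

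**Figure D5:**
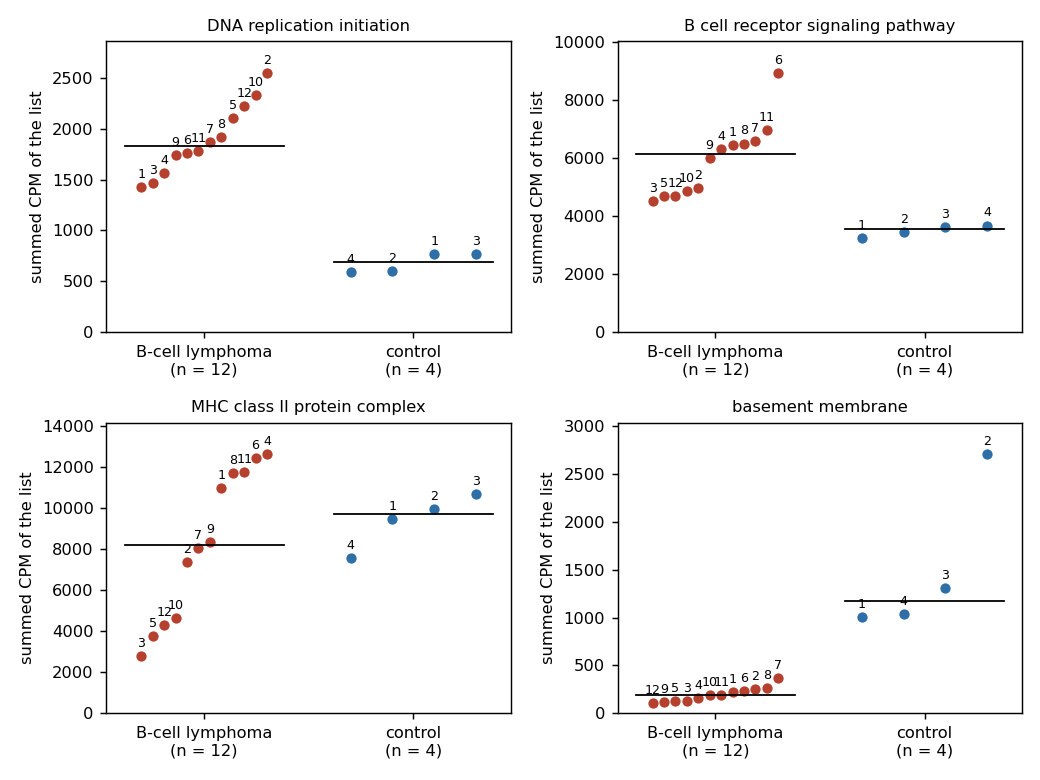
Summed CPM of 4 function lists in the 12 lymphomas (red) and the 4 controls (blue). Each point is a sample numbered by replicate and ordered by value, and each line is the group median. Replication initiation, B-cell receptor signalling and basement membrane separate the groups, whereas MHC class II places 4 lymphomas at or below 4655 CPM and the others from 7388 CPM upward.

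Lists of the extracellular matrix and the list of genes with an EGF-like domain had the lowest medians of the 39. In the basement membrane, the sheet of matrix under endothelium and around vessels, 8 of 20 genes were called lower and 0 higher, with a median log2 fold-change of -2.68. Every lymphoma lay below every control in 15 of the 20, against 11.2% of all genes tested. The summed level was 1004, 2708, 1309 and 1035 CPM in the controls and 105 to 369 CPM in the lymphomas, the lowest in replicate 12 and the highest in replicate 7. ENSCAFG00000003426 had 117, 573, 200 and 160 CPM in the controls. In the lymphomas it ranged from 0.448 to 12.9 CPM with a median of 5.91 (log2 fold-change -5.21 ± 0.47, adjusted p = 7.14e-09). Without control 4, 4 of the 20 genes were called lower and the median was -2.81.

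Other matrix lists, and the EGF-like list, which is defined by a protein domain and not by the matrix, were alike in direction. Extracellular matrix binding had 4 of 13 genes called lower (median -3.04), proteinaceous matrix 5 of 20 (median -2.78), genes with an EGF-like domain 8 of 20 (median -2.69) and ECM-receptor interaction 2 of 20 (median -2.49), with 0 higher in each. Without control 4 these lists had, in the same order, 4, 3, 3 and 1 genes called lower. The summed level of the EGF-like list overlapped between lymphomas (346.5 to 1594 CPM) and controls (1289 to 1681 CPM). The member of extracellular matrix binding with the lowest p was ENSCAFG00000018672, at 21.2, 88.7, 32.6 and 24.7 CPM in the controls and between 0 and 2.21 CPM in the lymphomas (log2 fold-change -5.31 ± 0.52, adjusted p = 9.43e-09). In the angiogenesis list 8 of 40 genes were called lower and 1 higher (median -2.13), or 3 and 0 without control 4. The summed level of the angiogenesis list overlapped between lymphomas (2114 to 4535.5 CPM) and controls (4476 to 5256 CPM). Its member of lowest p, ENSCAFG00000000482, stood at 30.9, 168, 74.4 and 109 CPM in the controls. It ranged from 0.895 to 6.49 CPM in the lymphomas (log2 fold-change -4.86 ± 0.36, adjusted p = 3.65e-10). Negative regulation of endothelial cell migration had 6 of 17 genes called lower (median -2.30), adherens junctions 4 of 20 (-2.24), smooth muscle cell migration 3 of 15 (-2.20) and platelet-derived growth factor receptor signalling 4 of 20 (-1.54). Without control 4 these had, in the same order, 3, 1, 3 and 3. Summed levels overlapped for endothelial cell migration (lymphomas 1051 to 2068 CPM, controls 2040 to 3093 CPM). They also overlapped for smooth muscle cell migration (184 to 900.5 CPM and 691 to 1406 CPM). Like the T-cell and cytokine lists, these lists had medians below 0. Whether their levels varied together with those lists over the tumours was not tested, nor was their part in those results.

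In the antiviral and innate lists the share of genes called was near that over all genes (2.38% higher, 3.15% lower) or below it. In the list of defence against virus 0 of 40 genes were called higher and 1 lower (median -0.43). The sum of that list ranged from 1547 CPM in lymphoma 11 to 5423 CPM in lymphoma 4, and control 1 (6533 CPM) lay above all other samples. Restriction of viral genome replication had 1 of 20 genes called higher and 0 lower, with a median of -0.07 that became 0.68 without control 1, and type I interferon production 1 of 17 and 0 (median 0.55). Lists for phagosome, lysosome, interleukin-12 production, antigen presentation and the whole MHC complex had 0 calls in either direction at medians of -0.49 to -0.22 (of their 79 distinct genes 39 had an unadjusted p under 0.05 in edgeR, and DESeq2 called 7), and lymphocyte apoptosis had 2 of 20 genes called lower (median -0.19).

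The study also lists long non-coding RNA genes. Of 97 such genes 96 were tested, 3 were called higher and 12 lower, and the median log2 fold-change was -0.77. Without control 4, 0 were called higher and 4 lower. Among 9 microRNA genes, which a poly-A library samples only as longer precursors, 0 were called higher and 1 lower, and that call rested on control 4. ENSCAFG00000032467 had 55.4 CPM in control 4, 0 in controls 1 to 3 and at most 0.383 CPM in the lymphomas. Without control 4 it was not called (edgeR, adjusted p = 0.522).

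For the median gene, the measured spread over the tumours was larger than over the controls. The median standard deviation of log2 CPM over genes was 0.496 in the 12 lymphomas and 0.402 in the 4 controls, or 0.296 in controls 1 to 3. The standard deviation was larger in the lymphomas for 63.6% of genes. At equal spread, a standard deviation from 4 samples is usually estimated lower than one from 12. A part of this difference thus comes with the group sizes, and its amount was not tested. Genes called higher were steadier over the tumours (median 0.349) than genes called lower (median 0.666), and the controls showed the same order (0.295 and 0.658). The called genes were chosen for differing between the groups, so their values in each tumour are a description. Relative to the mean of the controls, the median log2 difference of the higher genes ran from 1.02 in lymphoma 6 to 1.72 in lymphoma 5. That of the lower genes ran from -2.49 in lymphoma 7 to -3.68 in lymphoma 12. Spearman's rho over genes between pairs of lymphomas was 0.862 to 0.969 with a median of 0.937.

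Some genes varied widely between tumours. Of 7984 genes with a mean of at least 20 CPM over the lymphomas, 89 (1.11%) had a standard deviation above 2 on the log2 scale. Such a spread itself keeps a gene from passing the test. ENSCAFG00000032358 had the largest spread (3.60). It stood at 12.1 to 57.5 CPM in 8 lymphomas and at 2342 to 4641 CPM in lymphomas 5, 1, 3 and 10, while the controls held 2496, 13624, 2521 and 3496 CPM. Its log2 fold-change of -2.16 ± 1.15 did not pass the test (edgeR, adjusted p = 0.122). ENSCAFG00000016072 followed (3.55), with 2053 CPM in lymphoma 7, 163 CPM in lymphoma 2 and at most 7.93 CPM in the others, and 1.99 to 5.62 CPM in the controls (adjusted p = 0.0559). ENSCAFG00000014395 was above all controls in 9 of the 12 lymphomas, reaching 202 CPM, but was at 0 in lymphoma 5 and at 0.448 CPM in lymphoma 12. Its controls held 4.66 to 26.4 CPM, and its log2 fold-change of 3.19 ± 0.91 missed the threshold (adjusted p = 0.00491).

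Some genes belonged to a single tumour. In 95 genes the highest lymphoma held at least 20 CPM and at least 8 times the level of the next. Of these, 49 were highest in lymphoma 6, 15 in lymphoma 11, 9 in lymphoma 1, 7 in lymphoma 7 and 6 in lymphoma 12, and 9 were spread over lymphomas 3, 4, 8 and 9. Lymphomas 2, 5 and 10 had 0. Lymphoma 6 also had the lowest mean rho with the other tumours (0.900), followed by lymphoma 3 (0.907), against 0.929 to 0.947 in the remaining tumours.

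A direct contrast, fitted in the same model, set the B-cell lymphomas against the 3 intestinal and 1 T-cell lymphomas of the series. The study grouped the intestinal samples with the T-cell sample by their expression in this series. The contrast is therefore no independent check of the B-cell label, and as a pooled one it cannot check any single tumour. Of the 15162 genes 161 (1.06%) were called higher and 472 (3.11%) lower in the B-cell lymphomas. Of 20 genes of B cell activation 7 were called higher and 1 lower, of 20 genes of B-cell receptor signalling 5 and 2, and of 9 MHC class II genes 5 and 0 with a median log2 fold-change of 2.26. Alpha-beta T cell activation had 0 of 20 called higher and 6 lower (median -1.24). Replication initiation (median -0.37) and kinetochore genes (median -0.24) had 0 calls in either direction by edgeR, with 10 of 16 and 5 of 18 genes at an unadjusted p under 0.05, and DESeq2 called 1 and 0. SHCBP1 had a mean of 81.8 CPM in the B-cell lymphomas and 144 CPM in the other lymphomas (log2 fold-change -0.82), and FLT3 had 3.48 and 4.86 CPM (-0.45), neither past the threshold (edgeR, adjusted p = 0.0100 and 0.450). Most of the other lymphomas came from the intestine, so that organ and cell type cannot be told apart in this contrast.

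The comparison was repeated without control 4, since its source field describes T-cell culture. The test then called 399 genes (2.63%), 107 higher and 292 lower, of which 394 were among the 839 called with all controls (47.0% of them) and 5 were not. Leaving out any control lowered the number, to 519 without control 1, 325 without control 2 and 529 without control 3. Effect sizes moved little. Of the 839 genes 834 kept their sign without control 4 and 830 had an adjusted p of at most 0.05 in the same direction. Their fold-changes shifted by a median of 0.12 on the log2 scale, and 24 shifted by more than 1. The number of genes with every lymphoma above every control rose from 1162 to 1383 and with every lymphoma below from 1698 to 1991. Apart from rescaling, leaving out any control can only raise these numbers, so the rise says nothing about control 4.

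The 5 genes whose sign turned without control 4 were all called lower with it, and 14 of the 478 lower genes had at least 8 times the level of the next control in control 4. ENSCAFG00000022010, ENSCAFG00000028127, ENSCAFG00000030746 and ENSCAFG00000032467 had 113, 58.1, 1173 and 55.4 CPM in control 4, against at most 1.99, 0.305, 16.5 and 0 CPM in controls 1 to 3. The most abundant of the 5, ENSCAFG00000029384, stood at 20956 CPM in control 4 and at 609, 704 and 688 CPM in controls 1 to 3, while the lymphomas held 336 to 1240 CPM with a median of 701. Its log2 fold-change of -2.91 ± 0.47 (edgeR, adjusted p = 9.31e-06) became 0.19 without control 4 (adjusted p = 0.582). A further difference of that library was the share of reads that fell on more than 1 gene among reads on genes, 2.78% against 0.573 to 0.616% in controls 1 to 3 and 0.333 to 0.959% in the lymphomas. In the T-cell lines that share was 1.29 to 1.68%. Its part in these results was not tested.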

How the data were processed

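Per the labels and the study's methods, poly-A RNA of 12 B-cell lymphomas, 4 controls and the other 21 samples was sequenced as paired reads. The authors mapped them with BWA to CanFam3.1, removed duplicates with Picard, filtered with SAMtools and counted genes of Ensembl release 85 with HTSeq 0.6.1. They deposited raw counts per gene. The strand setting is not given in the sources used here, so overlapping and antisense genes are uncertain. Reads outside genes (70.0 to 82.9% of all reads in a file) and on more than 1 gene were left out.

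In R 4.3.3, edgeR 4.0.16 fitted TMM-scaled counts of all 37 samples in 8 groups. Genes whose highest CPM passed the 40th percentile were kept (15162 of 32704). Log2 CPM used a prior count of 2. Standard errors were derived from each fold-change and its F statistic. Scripts were tested on simulated data. DESeq2 1.42.0 and other alternatives are described in the closing section.

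The members and lists were chosen with earlier results of these data known. No table pairs the identifiers with symbols, so planned symbol lists were not used, and the naming rules were applied to identifiers. The rules took the largest called changes without overlap, up to 3 called list members of lowest p in each direction, the 10 largest spreads over the lymphomas at a mean of at least 20 CPM and the most abundant called genes, of which a part is printed. Genes whose sign turned without control 4 were named after their values were seen. Counting intervals cover counting error only.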

Additional observations from a re-analysis of the deposited data

Results flagged for a closer look

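In groups of 4 samples, a value was singled out when its gap to the nearest other sample exceeded Dixon's critical share of the range of the group, which chance does for about 1 in 20 groups. Among the 139 genes, list sums and library measures examined in the controls, 12 were singled out, 8 of them for control 2, 2 for control 4 and 1 each for controls 1 and 3.

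Control 4 stood apart for ENSCAFG00000029384 (20956 CPM against 609 to 704 CPM in the other controls) and for the percentage of gene reads that overlapped more than 1 gene (2.78% against 0.573 to 0.616%). Control 2 stood apart for ENSCAFG00000009884 (714 CPM against 36.3 to 106 CPM), ENSCAFG00000032358 (13624 CPM against 2496 to 3496 CPM), ENSCAFG00000018672 (88.7 CPM against 21.2 to 32.6 CPM), ENSCAFG00000014395 (26.4 CPM against 4.66 to 8.24 CPM) and the summed list of smooth muscle cell migration (1406 CPM against 691 to 783 CPM). In each of these genes and sums control 2 was the highest control. The cause was not tested.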

How the results depend on the processing

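The number of called genes depended on the fit more than on the filter or scaling. From 839 it went to 7116 at an adjusted p of 0.05 (3475 higher, 3641 lower), 268 with only these 16 samples (22 and 246, all without overlap), 510 with the 7 lymphomas that the flow cytometry field calls B-cell lymphoma (268 and 242, of which 239 below all controls) and 1510 with DESeq2 (513 and 997, of which 917 below all controls). RLE scaling gave 174 higher genes, 163 of them above all controls, and thinned counts 189 and 181. Only 102 genes were called (3 higher, 99 lower, all without overlap) from the lymphomas and controls 1 to 3 alone, an alternative chosen after seeing the data. Leaving out 1 control gave 325 to 529 genes, 107 to 197 higher and 210 to 364 lower, with 106 to 196 above and 198 to 342 below all controls. Such fits have fewer samples by construction.

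Replicate numbers did not pair the samples: deviations of same-numbered lymphomas and controls correlated at -0.094 to 0.028. With the replicate block 28 genes were called (21 higher, 7 lower, of which 20 above and 5 below all controls), and the median of lymphocyte apoptosis was -0.81. The contrast with the other lymphomas gave 72 higher and 30 lower genes with this block, 1739 and 2952 at an adjusted p of 0.05, 354 higher with DESeq2 and 216 lower with the 7 lymphomas.

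ENSCAFG00000029384 lay between -3.29 and 0.19 when 1 control was left out, turned to 0.19 without control 4 and to 0.21 with controls 1 to 3 alone. List medians moved by more than the spread over the lymphomas in few cases. With RLE and DESeq2 alike they were 0.17 for G1/S, 0.28 for G2/M, 0.54 for DNA integrity, 0.34 for B cell proliferation and -0.43 for phagosome, and -1.0 and -1.02 for long non-coding RNA genes. Thinning gave 0.26 for G1/S, 0.58 for DNA integrity and -1.01 for long non-coding RNA genes. The 7 lymphomas gave 0.24 for G1/S, -0.40 for phagosome, -2.72 for smooth muscle cell migration and -1.09 for long non-coding RNA genes. Without 1 control the range was 0.41 to 0.62 for G1/S, 0.64 to 0.85 for DNA integrity and -0.22 to 0.01 for phagosome. The cause of these shifts was not tested. The other list medians and the spread over the lymphomas moved by less than the variation between lymphomas, which is wide for some lists: negative regulation of viral genome replication went from -0.07 to 0.68 without control 1 (range -0.28 to 0.68). Depth limits statements on genes under 1.53 CPM.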
